A study of Mus musculus with 16 samples.

Results

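The 10 genes described here encode chaperones and stress regulators of the endoplasmic reticulum (ER), and they were picked by symbol from tables that hold 23966 genes for embryos and 24486 entries for islets. They are Hspa5, Hsp90b1, Pdia3, Pdia4, Pdia6, Calr, Canx, Sdf2l1, Xbp1 and Ddit3, and all 10 were present in both kinds of table. The study asked whether small RNA from the sperm of males on a high-fat diet carries an effect of that diet to the next generation. Male C57BL/6J mice, 5 weeks old at the start, were given a high-fat diet (HFD, D12492) or a normal diet (ND, Diet 1415). Sperm RNA of 30 to 40 nt from either group was injected at 2 ng per µl into fertilised ICR eggs, which came from superovulated females aged 6 weeks. HFD and ND below name the diet of the sperm donors, not of the animals measured.

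The data used here are 10 RNA-seq libraries of the 16 samples in the series. At the 8-cell stage (56 h after injection) there was 1 ND and 1 HFD library, and at the late blastocyst stage (75 h) there was again 1 of each, every one a Smart-Seq2 library of 5 pooled embryos. Pancreatic islets of the F1 offspring, taken after a fast of 6 h, gave 3 ND and 3 HFD libraries. Every library came from injected eggs, so the comparisons are between the injected RNAs, and libraries of water-injected eggs were not analysed here. The labels do not give the age or sex of the offspring or the number of animals behind an islet library, so the spread between islet libraries may be partly technical.

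Proteins that enter the ER are folded there by chaperones and by enzymes that join cysteines into disulfide bonds. When unfolded protein builds up, the sensors IRE1, PERK and ATF6 start the unfolded protein response, in which IRE1 splices Xbp1 mRNA, PERK slows translation and favours ATF4, and ATF6 is cut to release a transcription factor. The chaperone genes are classic targets of this response. Beta cells and acinar cells of the pancreas, which secrete large amounts of protein, are rich in these chaperones, and the trophectoderm, the outer layer of the blastocyst, is the embryo's earliest epithelium.

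The promoters are shown first, because a known element of the response lies in many of them; its part in the levels below was not tested. The ER stress response element (ERSE) is CCAAT and CCACG separated by 9 bases, and it was searched on both strands in the 300 bases around each RefSeq gene start (250 before, 50 after, build GRCm38.p6). An exact copy was found in 5 of the 10 promoters, those of Hspa5, Hsp90b1, Pdia6, Calr and Canx, and in 39 of all 32851 promoters in the RefSeq table (0.119%). The element was first described in promoters of ER chaperone genes, so its presence here is known background. With at most 1 mismatch, a search chosen after the exact matches were seen, Pdia3, Pdia4 and Ddit3 were added, which made 8 of 10 against 1.5% of all promoters. Each copy is printed 5′ to 3′ on the strand that reads CCAAT first, with 8 flanking bases on each side, and capitals mark letters that match the element.
Hspa5 (chr2:34772017-34772051, plus strand): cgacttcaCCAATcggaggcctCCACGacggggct
Hsp90b1, upstream copy (chr10:86705630-86705664, minus strand): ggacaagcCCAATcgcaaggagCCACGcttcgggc
Hsp90b1, downstream copy (chr10:86705525-86705559, plus strand): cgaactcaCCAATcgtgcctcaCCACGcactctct
Pdia6 (chr12:17266483-17266517, plus strand): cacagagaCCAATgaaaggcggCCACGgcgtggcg
Calr (chr8:84847067-84847101, plus strand): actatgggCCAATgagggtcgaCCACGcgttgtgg
Canx (chr11:50325792-50325826, minus strand): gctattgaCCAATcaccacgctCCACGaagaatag
Pdia3, 1 mismatch (chr2:121413865-121413899, plus strand): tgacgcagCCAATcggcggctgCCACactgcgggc
Pdia4, 1 mismatch (chr6:47813594-47813628, plus strand): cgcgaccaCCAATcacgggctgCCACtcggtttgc
Ddit3, 1 mismatch (chr10:127290694-127290728, minus strand): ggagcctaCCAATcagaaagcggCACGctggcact

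Hsp90b1, the ER member of the HSP90 family, was the only one of the 10 genes with 2 exact copies, and another copy with 1 mismatch lay between them (chr10:86705590-86705624). The Hspa5 copy lies 65 to 47 bases before the start, and the whole stretch before that start is printed because it holds 4 CCAAT half-sites on either strand, with all half-sites in capitals as read on the gene's strand (ATTGG and CGTGG are the reverse complements).
Hspa5 (chr2:34771840-34772089, plus strand): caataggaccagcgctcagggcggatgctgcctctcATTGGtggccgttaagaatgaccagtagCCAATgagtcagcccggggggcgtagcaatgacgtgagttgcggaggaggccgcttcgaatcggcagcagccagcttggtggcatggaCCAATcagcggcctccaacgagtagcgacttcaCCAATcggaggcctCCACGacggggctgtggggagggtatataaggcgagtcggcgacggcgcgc
Sdf2l1, which as deposited differed by more than 1 on the log2 scale between the injections at both embryo stages, had both kinds of half-site but not at the spacing of the element, and its stretch is printed for contrast.
Sdf2l1 (chr16:17132384-17132633, minus strand): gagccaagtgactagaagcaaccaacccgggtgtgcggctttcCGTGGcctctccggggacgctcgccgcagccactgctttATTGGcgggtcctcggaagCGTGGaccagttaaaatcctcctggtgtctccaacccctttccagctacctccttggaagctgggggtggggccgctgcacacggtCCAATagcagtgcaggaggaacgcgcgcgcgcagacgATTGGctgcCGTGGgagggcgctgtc

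CCAAT alone was in 9 of the 10 promoters against 37.4% of all promoters, and CCACG alone in 7 against 32.8%. Both are part of the longer element, so these counts overlap with it. Of the other elements searched, ERSE-II (ATTGGNCCACG, in 0.0365% of promoters) and the unfolded protein response element (only as TGACGTGG, in 0.676%) were found in 0 of the 10 windows. The Hspa5 stretch printed above holds a form of the latter that differs only in the last letter, which was not searched for. The Xbp1 window held none of the motifs searched. A match is a description of the sequence and no measure of binding.

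**Figure D1:**
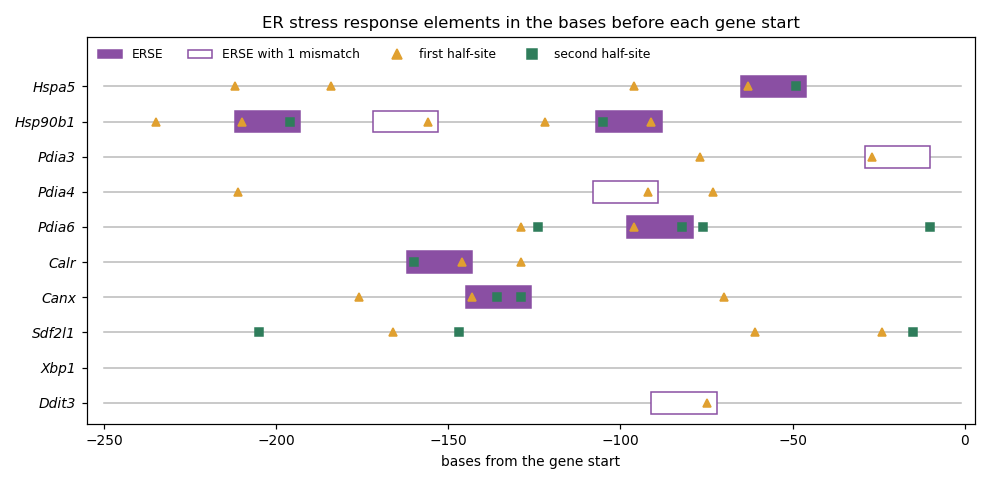
Position of each ERSE (filled box exact, open box 1 mismatch) and of its half-sites (triangle for the first, square for the second, either strand) in the bases before the start of each gene, with the start at the right end. Exact copies lie in Hspa5, Hsp90b1, Pdia6, Calr and Canx, and the Xbp1 line is empty.

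All values below are FPKM, fragments scaled to gene length and to library size, as deposited, and differences are on the scale of log2(FPKM + 1). The summed FPKM of a library ran from 523583 to 702018 in embryos and from 730432 to 1032630 in islets, and the depth in reads is unknown. HFD islet libraries were higher across the transcriptome, with a median gene at 0.30, and HFD embryo libraries were lower, where the median gene differed by -0.32 between the 8-cell pools and by -0.18 between the blastocyst pools. Each result for the 10 genes is therefore read against the median gene, and again after the libraries were brought to a common level by median ratio scaling. Islet libraries carried the markers of their label, with Ins2 at 244083 to 582307 FPKM, and also markers of acinar cells, with Ctrb1 at 23879 to 70230 FPKM. In embryos the trophectoderm keratin gene Krt18 went from 14.1 to 24.5 FPKM at the 8-cell stage to 1826 to 1952 FPKM in blastocysts. In bulk samples, fewer cells of a type and less RNA per cell cannot be told apart.

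The 10 genes changed with developmental stage. From the 8-cell stage to the blastocyst 9 of the 10 genes rose and Pdia3 fell, and all 10 passed the test (adjusted p from 0.000475 to 0.0464). Of all 9603 genes tested, 31.9% rose and 16.1% fell. The median stage difference of the 10 genes was 2.07 against 0.30 for all genes, and after median ratio scaling it was 1.81 against 0.08, with the same split of 9 and 1 (26.1% and 22.3% of all genes). The test was an additive limma model of stage and injected RNA over the 4 libraries, which leaves 1 residual degree of freedom. The ND and HFD libraries thus stand in for replicates of a stage.

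Hspa5, which encodes BiP, the HSP70 chaperone that also holds the stress sensors inactive, had 74.5 (ND) and 57.7 FPKM (HFD) in 8-cell embryos and 253 and 188 FPKM in blastocysts. Both blastocyst pools stood above both 8-cell pools, by a log2 difference of 1.72 (SE 0.21, adjusted p = 0.00200, limma). Hsp90b1, which encodes GRP94, was at 20.6 and 20.3 FPKM at the 8-cell stage and at 205 and 203 FPKM in blastocysts. Its rise of 3.26 (SE 0.21, adjusted p = 0.000475) was 9.92-fold in ND and 10.0-fold in HFD pools, and the pair of injections gave nearly the same level at each stage. Sdf2l1, a partner of BiP that keeps client proteins soluble, rose from 23.8 and 9.87 FPKM to 61.0 and 29.6 FPKM (1.41, SE 0.22, adjusted p = 0.00435). The HFD blastocyst pool was only slightly above the ND 8-cell pool for this gene.

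Among the lectin chaperones, which hold newly made glycoproteins during folding, Calr (calreticulin, in the ER lumen) went from 33.4 and 33.3 FPKM to 206 and 139 FPKM. Canx (calnexin, its membrane-bound relative) went from 62.9 and 48.2 FPKM to 175 and 130 FPKM. The stage differences were 2.31 (SE 0.24, adjusted p = 0.00138) and 1.44 (SE 0.21, adjusted p = 0.00327). The 8-cell pools were level for Calr, while in blastocysts the HFD pool was lower.

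The disulfide isomerase genes were split. Pdia6 rose from 17.5 and 13.9 FPKM to 127 and 89.8 FPKM (2.70, SE 0.22, adjusted p = 0.000738), and Pdia4 from 13.8 and 9.75 FPKM to 58.2 and 32.6 FPKM (1.82, SE 0.24, adjusted p = 0.00244). Pdia3, which encodes ERp57, the isomerase that works with calreticulin and calnexin, went the other way, from 225 and 139 FPKM to 172 and 53.7 FPKM. It fell by 0.87 (SE 0.28, adjusted p = 0.0464), and this call was lost with a pseudocount of 0.1 FPKM (adjusted p = 0.0643) and without the filter on low values (adjusted p = 0.0942). The 8-cell ND pool was the highest of the 4 and the blastocyst HFD pool the lowest. Pdia3 had the highest level of the 10 genes in both 8-cell pools and ranked 5 and 7 of 10 in the ND and HFD blastocyst pools.

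The transcription factors of the response rose as well. Xbp1, the target of IRE1 and a driver of ER expansion, was at 0.657 and 0.995 FPKM at the 8-cell stage and at 41.7 and 22.5 FPKM in blastocysts. With a log2 difference of 4.12 (SE 0.35, adjusted p = 0.000895) it had the steepest rise of the 10, and the tables do not separate its spliced from its unspliced form. Ddit3, which encodes CHOP, a factor linked to cell death under lasting stress, went from 11.6 and 7.23 FPKM to 66.9 and 81.2 FPKM (2.87, SE 0.28, adjusted p = 0.00128). In the embryo tables the listed locus of Ddit3 (chr10:127290793-127311786) extends over its neighbour Mars, a transfer RNA ligase gene. Mars itself was listed at 9.16 and 7.02 FPKM and then at 36.3 and 30.2 FPKM, so it too was higher in blastocysts, and reads shared by the 2 genes cannot be told apart.

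**Figure D2:**
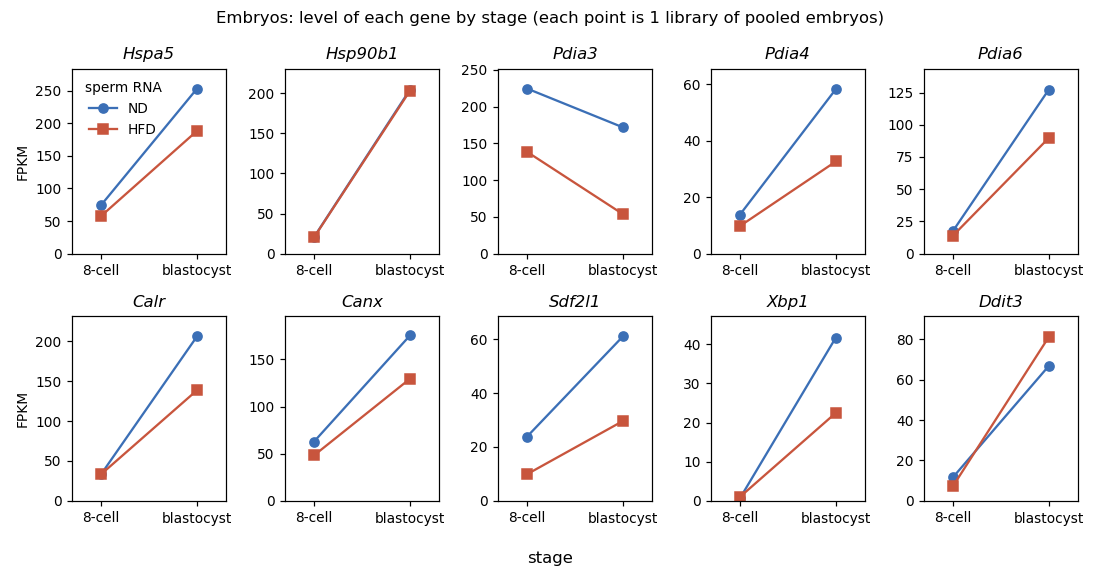
FPKM of each gene (linear axis from 0, scale differs by panel) in the 4 embryo libraries, each point being 1 pool of 5 embryos, circles and blue lines for ND and squares and red lines for HFD. The lines of 9 genes climb from left to right and those of Pdia3 descend, and the HFD line lies below the ND line in blastocysts for every gene but Ddit3, with Hsp90b1 almost level (and 0.13 higher in HFD after median ratio scaling).

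Other genes of ER protein folding gave mixed calls over the same step. Their counts are read against the shares of all genes (31.9% higher and 16.1% lower, or 26.1% and 22.3% after scaling) and the median of all genes (0.30). Among 17 measured disulfide and proline foldases, 11 rose and 0 fell (7 and 1 after median ratio scaling), with a list median of 0.90. Txndc12, a thioredoxin-like ER protein, rose from 30.7 and 36.4 FPKM to 188 and 129 FPKM (2.19, SE 0.26, adjusted p = 0.00194). P4hb, the founding disulfide isomerase gene, stayed between 54.6 and 64.3 FPKM and did not pass (0.11, SE 0.21, adjusted p = 0.695). Of 16 genes of glycoprotein folding and N-glycosylation 9 rose and 2 fell (7 and 2 after scaling), among them the oligosaccharyltransferase subunits Ddost, which rose from 17.6 and 12.5 FPKM to 61.6 and 30.1 FPKM (1.48, SE 0.25, adjusted p = 0.00513), and Tusc3, which fell from 27.9 and 12.6 FPKM to 9.92 and 8.20 FPKM (-0.98, SE 0.30, adjusted p = 0.0356).

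Counts for translocation and degradation are read against the shares of all genes (31.9% higher and 16.1% lower, or 26.1% and 22.3% after scaling). Translocation into the ER had 7 of 18 genes higher and 0 lower (6 and 3 after scaling), with a list median of 0.25 (-0.0074 after scaling). Sec61b, a subunit of the translocation channel, rose from 99.9 and 135 FPKM to 227 and 283 FPKM (1.12, SE 0.21, adjusted p = 0.00739). For ER-associated degradation 6 of 20 rose and 1 fell (2 and 3 after scaling), with a list median of 0.41 (0.17 after scaling). Herpud1, a stress-induced degradation gene, rose from 0.911 and 0.987 FPKM to 12.8 and 2.98 FPKM (1.93, SE 0.46, adjusted p = 0.0168), with a wide gap between the blastocyst pools.

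Calls among the co-chaperones and the stress branches were few or went both ways. They too are read against the shares of all genes (31.9% higher and 16.1% lower, or 26.1% and 22.3% after scaling). Among 9 co-chaperones of the ER HSP70 and HSP90 proteins 1 rose and 1 fell (0 and 2 after scaling). Dnajb9, which encodes the BiP co-chaperone ERdj4, had 473 and 292 FPKM at the 8-cell stage and 31.3 and 14.4 FPKM in blastocysts. It fell by 4.06 (SE 0.22, adjusted p = 0.000411), a change as steep as the rise of Xbp1 but opposite in direction. Of 8 sensors and regulators of the response 1 rose and 1 fell (1 and 2 after scaling), and Atf4 did not pass at 42.9 and 42.2 FPKM against 53.3 and 40.1 FPKM (0.12, SE 0.22, adjusted p = 0.688). Of 14 targets of PERK, ATF4 and CHOP 2 rose and 4 fell (1 and 6 after scaling), with a median of -0.41. Nupr1, a stress-induced nuclear protein gene, fell from 31.9 and 66.6 FPKM to 0.877 and 9.01 FPKM (-3.44, SE 0.37, adjusted p = 0.00156), while Asns, asparagine synthetase, rose from 17.1 and 15.4 FPKM to 37.8 and 34.0 FPKM (1.10, SE 0.22, adjusted p = 0.00959). Whether the lists differ from each other was not tested.

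**Figure D3:**
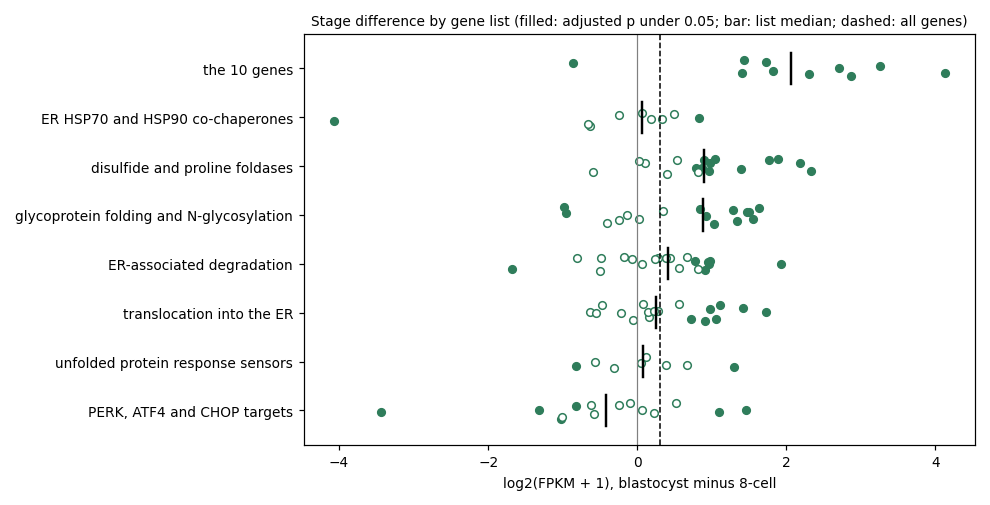
Log2 difference between blastocysts and 8-cell embryos (limma, 4 libraries) for each measured gene of the 10 genes and of 7 other ER lists, with filled points for adjusted p under 0.05, black bars for list medians and the dashed line for the median of all genes (0.30). The 10 genes lie right of the line except Pdia3, and the single point near -4 among the co-chaperones is Dnajb9.

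Between the injections at the 8-cell stage, 8 of the 10 genes averaged 10 FPKM or more, and all 8 were lower in the HFD pool, where 77.3% of all 3687 genes were lower. Their median difference of -0.37 was close to the -0.32 of the median gene. After median ratio scaling 7 of 9 were lower (59.4% of all genes), with a median of -0.15 against -0.10. With 1 pool per group there is no test, and a difference of at least 1 was taken as the size to name. Only Sdf2l1 reached it, at 23.8 FPKM in ND and 9.87 FPKM in HFD (-1.19), against 4.96% of all genes that were lower by as much, and it stood at -0.98 after scaling (0 of the 10 past 1, against 1.91% of all genes). Pdia3 came next at -0.69, while Hsp90b1 (-0.02) and Calr (-0.0019) were level as deposited and were 0.20 and 0.22 higher in HFD after scaling. Xbp1 and Ddit3 were under the minimum mean at this stage. Inner cell mass markers summed to 80.7 FPKM in ND and 56.1 FPKM in HFD at this stage, trophectoderm markers to 98.3 and 91.4 FPKM and primitive endoderm markers to 46.8 and 38.7 FPKM, and their part in the result was not tested.

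In blastocysts 9 of the 10 genes were lower in the HFD pool and Ddit3 was higher, where 65% of all 4134 genes were lower. The median difference was -0.53 against -0.18 for all genes. After median ratio scaling 8 of 10 were lower (53.6% of all genes), with a median of -0.39 against -0.05. That stress response genes were lower in this pool was known when the 10 genes were picked, so the count is no independent support for it. Pdia3 had the widest gap, with 172 FPKM in ND and 53.7 FPKM in HFD (-1.66, or -1.51 after scaling), and Sdf2l1 with 61.0 and 29.6 FPKM (-1.02, or -0.88 after scaling) was the other gene past 1, against 4.91% of all genes lower by as much (2.79% after scaling).

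Next in size were Xbp1 with 41.7 FPKM in ND and 22.5 FPKM in HFD (-0.86) and Pdia4 with 58.2 and 32.6 FPKM (-0.82). The abundant chaperones differed less. Calr (-0.57), Pdia6 (-0.50), Canx (-0.43) and Hspa5 (-0.42) each had an HFD level of 0.673 to 0.744 times that of ND. Hsp90b1 was level at 205 and 203 FPKM, and 0.13 higher in HFD after scaling. Ddit3 was 0.28 higher at 66.9 and 81.2 FPKM. Among the inner cell mass markers in these pools, Nanog was at 73.8 FPKM in ND and 34.6 FPKM in HFD. Pou5f1 was at 25.1 and 11.7 FPKM. The rest of these markers had a higher sum in HFD than in ND. The lower HFD sum of the whole list thus rests on Nanog and Pou5f1. The summed level of all 6 inner cell mass markers was 115 and 71.0 FPKM. That of 8 trophectoderm markers was 3012 and 3246 FPKM and that of 5 primitive endoderm markers 49.1 and 43.6 FPKM, and none of these markers was at 0 in every library. The 10 maternal oocyte markers summed to 32.7 and 31.5 FPKM in the 8-cell pools and to 92.5 and 90.8 FPKM in blastocysts, nearly all of the latter from Ooep (88.3 and 88.1 FPKM), and 6 of the 10 were under 1 FPKM in every library. Their part in the result was not tested.

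With both stages in the additive model, no gene of the 9603 was called for the injected RNA at the adjusted threshold (0 genes, 0%), so none of the 10 was. At an unadjusted p under 0.05 3 of the 10 were lower (Sdf2l1, Pdia3 and Pdia4), where 9.93% of all genes were lower by that rule. Median ratio scaling lost Pdia4, leaving 2 of 10 against 4.52% of all genes. Sdf2l1 had a mean difference of -1.10 (SE 0.22, adjusted p = 0.387) and Pdia3 of -1.18 (SE 0.28, adjusted p = 0.387).

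Other ER genes showed differences of the same order between single pools. Of all genes, 4.96% were lower in HFD by 1 or more at the 8-cell stage and 4.91% in blastocysts (1.91% and 2.79% after scaling). Higher by as much at the 8-cell stage were 72 of 3687 genes (116 of 3823 after scaling). In 8-cell embryos Slc3a2, an amino acid transporter subunit and ATF4 target, was at 28.5 FPKM in ND and 65.6 FPKM in HFD (1.17), while Tmx2, a transmembrane thioredoxin, was at 70.7 and 32.5 FPKM (-1.10). Spcs3, a signal peptidase subunit, was at 27.1 and 12.6 FPKM (-1.05) and Tusc3 at 27.9 and 12.6 FPKM (-1.09). In blastocysts Derl2, a degradation channel gene, was at 39.9 and 16.9 FPKM (-1.19), Tmx1 at 15.7 and 6.51 FPKM (-1.15), Dnajb9 at 31.3 and 14.4 FPKM (-1.07) and Ddost at 61.6 and 30.1 FPKM (-1.01). With the libraries scaled Slc3a2 (1.40) and Derl2 (-1.05) still differed by 1 or more, as did Tmx1 (-1.01), whose mean then lay under 10 FPKM, while Tmx2 (-0.87), Spcs3 (-0.84), Tusc3 (-0.87), Dnajb9 (-0.93) and Ddost (-0.87) did not. Of 16 measured translocation genes 13 were lower in HFD blastocysts and 3 higher, with Sec61g at 321 and 450 FPKM (0.49). Of all 4134 genes 65% were lower. After scaling 12 of the 16 were lower, against 53.6% of all genes. The single genes given here were named as the extremes of their lists.

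In islets the 10 genes were abundant to different degrees, and Ddit3, the lowest, was at rank 881 to 1804 in the ND libraries. Hspa5 led in ND with 253 ± 43.5 FPKM (SD, n = 3), at rank 98 to 124 of the genes listed in each ND library. Hsp90b1 (201 ± 49.4), Calr (194 ± 45.8), Pdia3 (169 ± 41.2), Pdia6 (129 ± 20.7), Xbp1 (107 ± 1.34), Canx (65.5 ± 9.76), Sdf2l1 (40.3 ± 12.7), Pdia4 (35.6 ± 6.91) and Ddit3 (23.3 ± 6.25) followed in that order of mean FPKM. Neighbours among the first 5 had ND ranges that overlapped, as had Sdf2l1 and Pdia4. Hsp90b1 and Calr changed places between libraries, each being higher in 3 of 6. The order in HFD was the same but for that pair. In ND blastocysts Hspa5, Calr and Hsp90b1 also held the top ranks, whereas Xbp1 was rank 6 of 10 in islets and last in all 4 embryo pools.

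All 10 genes had a higher mean in HFD than in ND islets, as had 93.8% of the 11737 genes tested by sign of the difference, and none passed the test (adjusted p from 0.139 to 0.690, limma). Over all genes 6 passed (0.0511%). At an unadjusted p under 0.05 Calr and Pdia3 were higher, 2 of 10 against 29.6% of all genes. The median difference of the 10 genes was 0.36 against 0.30 for all genes, and after median ratio scaling it was 0.02 against 0.01, with 6 higher and 4 lower (52.9% of all genes higher). On either scale the median of the 10 genes lay close to that of all genes.

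Hspa5 was at 238, 302 and 219 FPKM in ND replicates 1 to 3 and at 356, 272 and 344 FPKM in HFD replicates 1 to 3 (0.36, SE 0.20, adjusted p = 0.217). Hsp90b1 was at 187, 256 and 161 FPKM in ND and at 286, 226 and 287 FPKM in HFD (0.42, SE 0.22, adjusted p = 0.187). For both, ND replicate 2 lay above HFD replicate 2, so the groups overlapped. Sdf2l1 was at 34.6, 54.8 and 31.4 FPKM in ND and at 52.6, 56.7 and 47.2 FPKM in HFD (0.40, SE 0.21, adjusted p = 0.192), again with ND replicate 2 among the HFD values.

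Calr and Pdia3 were the 2 genes whose groups did not overlap, against 41.5% of all genes with every HFD library above every ND library. Calr was at 170, 247 and 165 FPKM in ND and at 294, 266 and 264 FPKM in HFD (0.52, SE 0.20, adjusted p = 0.139). Pdia3 was at 152, 216 and 139 FPKM in ND and at 232, 228 and 221 FPKM in HFD (0.45, SE 0.20, adjusted p = 0.160). The HFD values of Pdia3 were close together, with a standard deviation of 5.98 FPKM against 41.2 FPKM in ND. After scaling both overlapped, at 0.18 for Calr and 0.10 for Pdia3.

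Canx was at 58.5, 76.7 and 61.3 FPKM in ND and at 85.1, 75.1 and 81.6 FPKM in HFD (0.30, SE 0.18, adjusted p = 0.222). Pdia4 was at 31.8, 43.5 and 31.4 FPKM in ND and at 48.4, 39.0 and 47.3 FPKM in HFD (0.34, SE 0.18, adjusted p = 0.204), and Pdia6 at 112, 152 and 123 FPKM against 180, 143 and 158 FPKM (0.32, SE 0.19, adjusted p = 0.230). All 3 had ND replicate 2 above HFD replicate 2, and all 3 were slightly lower in HFD after scaling (Canx -0.04, Pdia4 -0.000061, Pdia6 -0.02).

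Xbp1 varied little as deposited, at 108, 106 and 108 FPKM in ND and at 119, 107 and 116 FPKM in HFD (0.08, SE 0.17, adjusted p = 0.690). Its difference was below that of the median gene (0.30), and it stood at -0.26 after scaling, where it was the 1 gene of the 10 whose groups did not overlap, lower in HFD as were 8.58% of all genes without overlap. Ddit3 was the most variable, at 20.6, 18.8 and 30.4 FPKM in ND and at 45.5, 26.1 and 22.1 FPKM in HFD (0.37, SE 0.26, adjusted p = 0.281). Its HFD mean rested on replicate 1, and the other HFD libraries lay within the ND range. Mars, which its listed locus overlaps in the islet table too, was at 18.2 to 24.2 FPKM over the 6 libraries.

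ND replicate 2 was the highest ND library for 8 of the 10 genes and lay above the lowest HFD library for 6. The 8 genes apart from Xbp1 and Ddit3 had every HFD value above ND replicates 1 and 3. Without ND replicate 2, 8 of the 10 had an unadjusted p under 0.05 against 41% of all genes, and none passed the adjusted threshold. This library was left out because it was seen to be high, and leaving out another one in turn gave 0 to 2 of the 10. The summed FPKM of the 10 genes was 1112, 1473 and 1070 in ND and 1699, 1438 and 1588 in HFD.

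**Figure D4:**
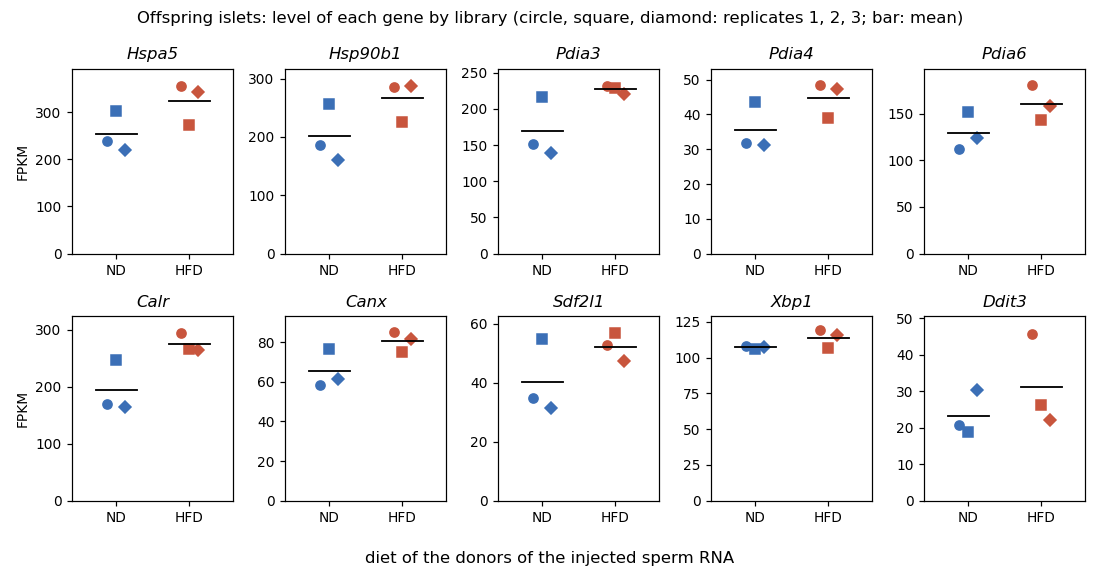
FPKM of each gene (linear axis from 0, scale differs by panel) in the 3 ND and 3 HFD islet libraries, with symbols for replicates 1 to 3 and a bar for the mean. The square of ND replicate 2 sits near or among the HFD points for the 8 chaperone genes, the points separate without overlap only for Calr and Pdia3, and Xbp1 is nearly flat as deposited. These are values as deposited, before scaling, after which Pdia4, Pdia6, Canx and Xbp1 are lower in HFD.

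Cell markers are set beside these values, as deposited and after median ratio scaling, and their counts are read against all genes. As deposited, 93.8% of all genes had a higher HFD level and 41.5% were higher without overlap. Lower without overlap were 92 of 11737 genes. After scaling 52.9% were higher, 971 of 11691 genes were higher without overlap and 8.58% were lower without overlap. The 10 beta cell markers summed to 288317 to 431345 FPKM in ND and 450966 to 694720 FPKM in HFD. All 10 had a higher HFD mean as deposited, 4 without overlap, which is near the deposited shares. After scaling 9 had a higher HFD mean, 1 without overlap. The 18 acinar markers summed to 200235 to 270835 FPKM in ND and 88916 to 187667 FPKM in HFD, 9 of them lower without overlap and 1 with a higher HFD mean. After scaling all 18 had a lower HFD mean, 14 without overlap, and summed to 199277 to 362883 FPKM in ND and 75380 to 174459 FPKM in HFD. The 6 endothelial markers summed to 86.1 to 135 FPKM in ND and 170 to 222 FPKM in HFD, all without overlap (3 of 6 after scaling), and the 7 duct markers to 134 to 179 FPKM and 231 to 294 FPKM. Of the duct markers 6 had a higher HFD mean (5 after scaling). Stromal markers (34.2 to 65.4 FPKM and 64.3 to 104 FPKM) and immune markers (23.5 to 48.9 FPKM and 45.1 to 101 FPKM) were higher in HFD by mean for all 6 that were matched in each list. The same held after scaling. The sums of alpha cell markers (1908 to 3390 FPKM and 1463 to 3070 FPKM) and of delta and PP cell markers (1459 to 4015 FPKM and 997 to 2475 FPKM) overlapped. A higher HFD mean was found for 0 of 5 alpha cell markers and 1 of 3 delta and PP cell markers. After scaling all 5 and all 3 had a lower HFD mean, 0 of them without overlap. No marker was at 0 in every islet library, and the part of cell makeup in the levels of the ER genes was not tested.

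Across the 6 islet libraries the chaperone genes varied together. Their 28 pairs had Pearson correlations of log2 levels from 0.75 to 0.99, with a median of 0.93, where the libraries share the overall shift described above. Pairs with Xbp1 ran from 0.19 to 0.72 (median 0.62) and pairs with Ddit3 from 0.05 to 0.62 (median 0.24). The genes whose levels were most like the mean of the 10 were Polr2g, a subunit of RNA polymerase II, Ppp1r11, a phosphatase inhibitor gene, Vimp, an ER membrane selenoprotein gene of the degradation machinery, Erlec1, an ER lectin gene, and Uqcrh, a subunit of the respiratory chain, with r from 0.996 to 0.998. High values were common, since the median r over 6674 genes of at least 5 FPKM was 0.80 and 19.7% of them reached 0.9.

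In the main islet fit none of the other ER genes passed the adjusted threshold, in any of the 7 lists. Among the co-chaperones all 11 measured were higher in HFD (median 0.37), including Hyou1, an ER HSP70-like chaperone, at 66.7 ± 17.7 FPKM in ND and 96.0 ± 9.57 FPKM in HFD (SD, n = 3; 0.55, adjusted p = 0.134, limma). Manf, a secreted partner of BiP, was at 52.6 ± 13.1 and 77.7 ± 8.97 FPKM (0.58, adjusted p = 0.126). All 17 glycoprotein folding genes (median 0.36) and all 18 translocation genes (median 0.39) were higher by mean, as were 21 of 23 degradation genes (median 0.36), 18 of 22 foldases (median 0.29), 10 of 11 sensors (median 0.31) and 14 of 16 targets of PERK, ATF4 and CHOP (median 0.39). Of all 11737 genes 93.8% were higher, with a median of 0.30, so these counts are read against that shift. After median ratio scaling the list medians lay between -0.03 and 0.10, against 0.01 for all genes.

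Some of these genes lay above or below the shift of all genes, and none passed the main test. With a replicate block Pdia2 (adjusted p = 0.0226, limma) and Nupr1 (adjusted p = 0.0290, limma) passed, though replicate numbers did not pair the libraries. Pdia2, the disulfide isomerase of the exocrine pancreas, was at 320 ± 34.9 FPKM in ND and 176 ± 66.6 FPKM in HFD (-0.92, SE 0.25, adjusted p = 0.114), and it passed without HFD replicate 2 (-1.20, adjusted p = 0.0447). It stood at -1.27 after scaling. Ero1lb, the beta cell form of the oxidase that feeds the isomerases, was at 288 ± 81.3 and 422 ± 32.2 FPKM (0.59, SE 0.22, adjusted p = 0.135), and at 0.24 after scaling. Nupr1 was at 1308 ± 799 and 606 ± 177 FPKM (-0.95, SE 0.38, adjusted p = 0.142), with a spread in ND larger than the difference. Its difference was -0.49 without ND replicate 3 and -1.43 without ND replicate 2. Atf4 was at 84.5 ± 7.89 and 124 ± 25.7 FPKM (0.53, SE 0.19, adjusted p = 0.129), and at 0.19 after scaling. Asns, one of its targets, was at 66.8 ± 10.6 and 57.1 ± 5.93 FPKM (-0.22, SE 0.18, adjusted p = 0.359), and at -0.56 after scaling.

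**Figure D5:**
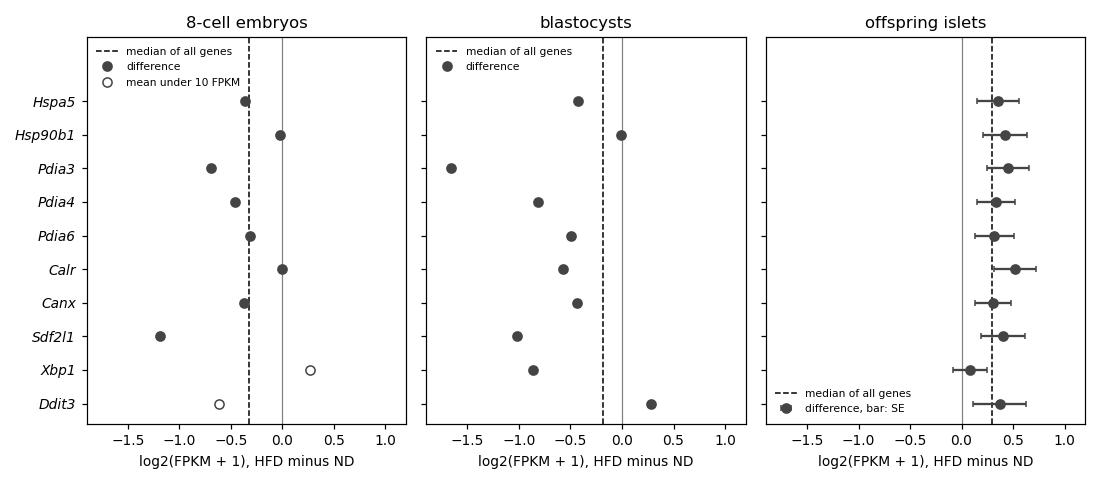
Log2(FPKM + 1) difference, HFD minus ND, of each gene in 8-cell embryos, blastocysts (1 pool per group, no error) and islets (3 libraries per group, bars are the SE from limma), with the dashed line at the median of all genes and open points for means under 10 FPKM. In islets the points sit around the dashed line at 0.30, whereas in blastocysts Pdia3, Sdf2l1, Xbp1 and Pdia4 lie furthest below theirs at -0.18. After median ratio scaling Pdia4, Pdia6, Canx and Xbp1 lie below 0 in islets, and Hsp90b1 lies above 0 at both embryo stages and Calr at the 8-cell stage.

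The 5 genes with an exact ERSE and the 5 without were set side by side. In blastocysts the differences between injections ran from -0.57 to -0.01 with the element (median -0.43) and from -1.66 to 0.28 without it (median -0.86). At the 8-cell stage they ran from -0.38 to -0.0019 with it (median -0.31) and from -1.19 to -0.46 for the 3 genes without it that reached the minimum mean (median -0.69). The stage difference ran from 1.44 to 3.26 with the element (median 2.31) and from -0.87 to 4.12 without it (median 1.82). In islets the medians were 0.36 and 0.37. The ranges overlapped except at the 8-cell stage, where there was 1 pool per group. That gap rests on the minimum mean, which left out Xbp1, a gene without the element, at 0.27. Among the genes without an exact copy, Pdia3, Pdia4 and Ddit3 hold a copy with 1 mismatch. No test was made of this split.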

How the data were processed

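Levels were taken from the tables of 10 RNA-seq libraries. Per the file headers, the authors deposited FPKM for each gene. TopHat2 2.0.8b and build mm10, and for the embryos Cufflinks, are named in the submitters' processing notes; normalization beyond FPKM is not given in the sources used here, nor are read depths. Embryo libraries follow Smart-Seq2, which does not mark strand, and islet libraries a stranded mRNA kit, per the labels' protocols; a common level cannot be assumed between them, and embryos and islets were fitted separately. Groups follow the sample titles.

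Embryo tables were joined by symbol (23976 used once), and 10 genes with a failed estimate were left out. Genes entered a test if they reached 1 FPKM in 3 of the 6 islet or 2 of the 4 embryo libraries. The fits used limma 3.58.1 (R 4.3.3) and log2(FPKM + 1) values (trend in the prior variance, two-sided, Benjamini-Hochberg adjusted p under 0.05 over all genes tested). The islet fit had 4 residual degrees of freedom. A fold on this scale understates changes of low genes. Single embryo pools were compared without a test, for genes averaging 10 FPKM or more. On simulated data 97 of 100 genes changed by 2 on the log2 scale and 66 of 100 changed by 1 were recovered in islets (11589 genes, 7 false calls). Between stages 100 of 100 changed by 2 were recovered (9090 genes, 9 false calls). The simulated noise was independent between genes, used variances estimated from these data and held no shift shared by a library. Changes under 1 were not simulated, so these rates may not hold for the real libraries.

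The lower coordinate of each gene is the listed start plus 1, which equals the lower RefSeq coordinate for 9 of the 10 genes but not for Pdia6. Hsp90b1, Pdia4, Calr, Canx and Sdf2l1 lie on the minus strand, so their gene start is the upper coordinate. There the listed and RefSeq ends were equal. All 10 symbols matched a RefSeq promoter. Pdia6 overlaps Atp6v1c2, and Pdia4 holds Mir704.

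The 10 genes and the 7 other lists were chosen with earlier results of these data known. From each other list, genes called in islets were named, filled to 3 by mean FPKM, and in embryos the highest and the lowest difference, and 5 genes by likeness to the 10; not every gene so named is printed. Alternatives were a pseudocount of 0.1, no filter, median ratio scaling, rescaling to TPM, a replicate block, each islet library left out and, in embryos, a mean of at least 1 FPKM.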

Additional observations from a re-analysis of the deposited data

Results flagged for a closer look

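As deposited, Pdia3 and Calr had every HFD islet library above every ND library, while the HFD blastocyst pool was lower, as was the HFD 8-cell pool for Pdia3. After median ratio scaling the islet groups of both genes overlapped. Pdia3 differed by 0.45 in islets, by -0.69 at the 8-cell stage and by -1.66 in blastocysts. Calr differed by 0.52 in islets, by -0.0019 at the 8-cell stage, which is level as deposited and 0.22 higher in HFD after scaling, and by -0.57 in blastocysts. Xbp1 and Ddit3 changed sides between the embryo stages. Xbp1 differed by 0.27 at the 8-cell stage, where both pools were under 1 FPKM, and by -0.86 in blastocysts, and Ddit3 by -0.62 and then 0.28. None of these differences between tissues or stages was tested, each embryo value rests on 1 pool per group, and the islet values follow the shift of all genes.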

How the results depend on the processing

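The islet count of 6 called genes was 3 with a pseudocount of 0.1 FPKM, 0 without the filter, 2 after median ratio scaling, 10 after rescaling to TPM and 0 to 373 when 1 library was left out (373 without ND replicate 3, 29 without HFD replicate 2, 28 without HFD replicate 3, 0 without ND replicate 1, 2 without ND replicate 2). None of the 10 genes was called under any islet setting (adjusted p from 0.0705 to 1.0). Of these 10, the 2 with an unadjusted p under 0.05 became 0 after median ratio scaling and 0 after TPM, and 0 to 8 when 1 library was left out (8 without ND replicate 2). Replicate numbers did not pair the libraries (same-number correlations -0.03, 0.04 and 0.03). With the replicate block 590 genes were called (537 higher, 53 lower), none of the 10 genes, and 0 of the 10 had an unadjusted p under 0.05, while Pdia2 (adjusted p = 0.0226) and Nupr1 (adjusted p = 0.0290) passed.

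The median of the 10 in islets, 0.36, was 0.024 after median ratio scaling and 0.17 after TPM. Reversed in islets after median ratio scaling were Pdia4 (-0.000061), Pdia6 (-0.024), Canx (-0.039), Xbp1 (-0.26), P4hb (-0.057), Krtcap2 (-0.048), Herpud1 (-0.18), Rtcb (-0.15) and Ern1 (-0.025), and after TPM Xbp1 (-0.12), Herpud1 (-0.033) and Rtcb (-0.012).

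In embryos median ratio scaling moved the median of the 10 for the injection from -0.40 to -0.21, with Hsp90b1 (0.17) and Ddit3 (0.0041) reversed, and for the stage from 2.07 to 1.81. At the 8-cell stage it moved the median from -0.37 to -0.15 (-0.15 with TPM) and left 0 genes past 1. In blastocysts it moved the median from -0.53 to -0.39 and left 1 gene past 1. All stage calls of the 10 held under every setting but that of Pdia3. The cause of these changes was not tested. How far read depth limits these values is unknown, since the tables hold no counts.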
